A study of Mus musculus with 21 samples.

Results

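The response of FoxO-intact mouse hindlimb muscle to streptozotocin (STZ) diabetes was read from 9 of the 21 RNA sequencing libraries of the series. The libraries were assigned to groups by their labels: 5 STZ floxed control libraries (title numbers 3, 7, 14, 17 and 21) and 4 floxed control libraries without STZ (1, 5, 9 and 19). STZ is a toxin that enters pancreatic beta cells and removes the source of insulin. All 9 carry floxed Foxo1, Foxo3 and Foxo4 alleles, are labelled Lox, and come from the littermate controls of animals in which a Cre transgene under the promoter of skeletal actin (ACTA1) deletes the 3 genes in muscle (triple knockout, TKO). The mice were of a mixed C57Blk6, C57Blk6J and 129 background.

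Diabetic animals had received 150 mg/kg STZ after a night without food, and females a further 75 mg/kg on day 3. Animals were kept in the study if random blood glucose stayed above 300 mg/dL. Controls are labelled as without drug, and the series design gives citrate buffer as the control injection. Powdered quadriceps and gastrocnemius were combined before RNA extraction, so every library is a mixture of fibre types and of the other cells of muscle. The labels give neither age nor sex of a library, and do not say whether each came from a separate animal, so p-values measure the spread between libraries.

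Insulin normally makes muscle take up glucose, build protein and store fuel, and it keeps FoxO transcription factors out of the nucleus through the kinase Akt. When insulin is lost, muscle turns to fatty acids and ketone bodies, and FoxO factors enter the nucleus and switch on genes of protein breakdown, antioxidant defence and the brake on growth. Diabetic muscle is known for wasting, for low glucose uptake and for raised circulating fatty acids, which themselves act as ligands of the PPAR nuclear receptors.

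Values below are CPM, counts scaled to the adjusted library size, and are listed in the order 1, 5, 9 and 19 for controls and 3, 7, 14, 17 and 21 for STZ. Fold changes are log2 differences, STZ minus control, with their standard error (SE), from edgeR's quasi-likelihood test with Benjamini-Hochberg adjustment over 12658 genes. A gene was past the threshold, or called, at an adjusted p under 0.05.

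Total counts were 4176132 to 7687823 in the controls and 3377613 to 7676700 under STZ. Skeletal muscle markers (18 genes) summed to 227800 to 320600 CPM in the controls. They summed to 203400 to 305800 CPM in 4 STZ libraries and to 106700 CPM in library 17. Library 17 stood apart from the rest: it lay at 86.17 on the first principal component of the 9 libraries, where the other 8 lay between -34.73 and 20.44. Its root mean square deviation from its group mean was 0.663 log2 units over genes, against 0.357 to 0.432 in the other 4. Results are therefore also given without it.

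Under STZ 171 genes passed, which is 1.35% of the genes tested: 63 were higher (0.498%) and 108 lower (0.853%). Of these, 54 rose and 89 fell by more than 2-fold, and 158 were protein coding. Every STZ library lay above every control for 58 of the 63 higher genes, against 458 of all genes tested (3.62%), and below for 105 of the 108 lower genes, against 655 (5.17%). In the 3 runs of library codes that hold 1 library of each group, 168 of the 171 genes changed with the sign of the fit in all 3, against 39% of all genes. These counts use the values that made the calls and are given as a description. Control library 9 and STZ libraries 14 and 17 come from runs that hold no floxed library of the other group. Over all genes tested the median change was 0.02, and 51.6% of genes had a change above 0.

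The number of calls moved with every library. Leaving out control library 1, 5, 9 or 19 gave 31, 73, 80 and 50 calls in turn. Leaving out STZ library 3, 7, 14, 17 or 21 gave 333, 68, 75, 71 and 92. Without library 17, 66 of the 171 genes were still called, in the same direction. Exactly 27 genes were past the threshold in all 9 of those fits, and the same 27 also passed under every other planned setting fitted to all runs in which they were tested; 8 of them, Acot1, Gbp3, Foxo6os, Cacna2d4, Kcng4 and Ddah1 included, were not tested with at least 10 counts in every floxed library. The 27 were Acot1, Acot2, Gbp3, Gbp5, Gpx3, Spns2 and Zcchc24 among the higher genes. Among the lower ones they were Cacna2d4, Cdc42ep2, Ddah1, Faap100, Foxo6os, Irx3os, Kcnc1, Kcng4, Map2k6, Mb, Mpp3, Oxct1, Rilp, Rmi2, Scd1, Slc2a4, Slc37a4, Slc41a3, Tfrc and Trp53inp2. Each of the other called genes lost its call in at least 1 of these fits.

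**Figure D1:**
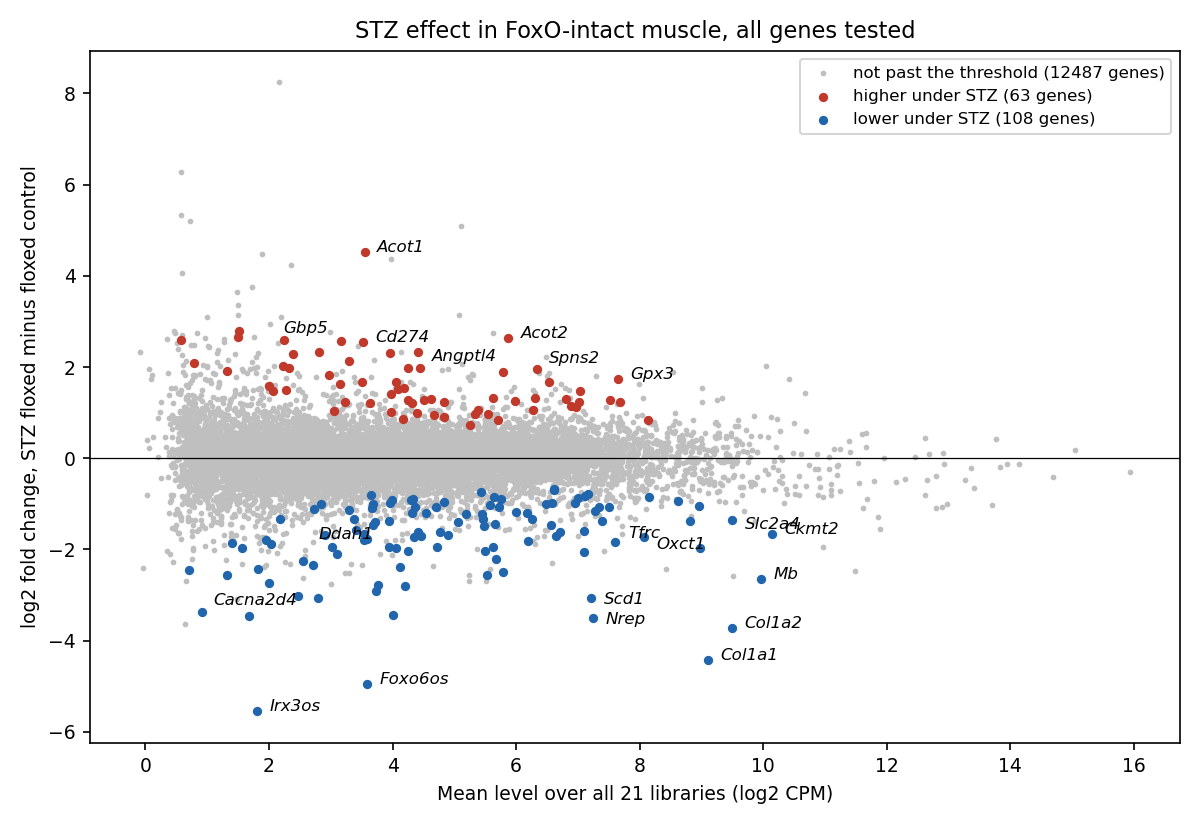
Log2 fold change (STZ floxed minus floxed control, vertical axis) against the mean level over all 21 libraries (log2 CPM, horizontal axis), 1 point per gene. The 63 red points are higher and the 108 blue points lower under STZ at an adjusted p under 0.05; Acot1 is the highest labelled point and Irx3os the lowest.

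The FoxO genes themselves were examined first, with the insulin pathway that controls them. Foxo3 had 71.8, 89.4, 64.1 and 67.1 CPM in the controls and 90.1, 80.3, 79.8, 114 and 87 CPM under STZ, and Foxo4 had 166, 195, 153 and 124 CPM in the controls and 201, 183, 192, 182 and 192 CPM under STZ. Foxo1 had 46.8, 67.4, 113 and 48.7 CPM in the controls and 41, 49.2, 36.4, 86.2 and 71.1 CPM under STZ. The groups overlapped for all 3 genes, and none passed: the log2 changes were -0.28 for Foxo1, 0.31 for Foxo3 and 0.25 for Foxo4 (adjusted p = 0.723, 0.615 and 0.615). Foxo6, the fourth member of the family and not floxed in these mice, had 7.1, 3.06, 3.27 and 3.94 CPM in the controls and 1.02, 1.94, 0.39, 0 and 0.308 CPM under STZ. Every STZ library was below every control, and Foxo6 fell by 2.74 ± 0.56 (SE; adjusted p = 0.017); the call was lost without library 1, 14 or 21 (adjusted p = 0.0917, 0.0522 and 0.0508).

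Foxo6os, a transcript annotated as antisense to Foxo6 (chromosome 4, 120291350 to 120303892, GRCm38), fell too. It had 18.4, 10.6, 16.5 and 22.4 CPM in the controls and 0.876, 0.324, 1.04, 0.182 and 0 CPM under STZ, so that the highest STZ library held less than the lowest control, and the change was -4.96 ± 0.55 (SE; adjusted p = 3.9e-05). The annotated ends of Foxo6 (chromosome 4, 120267079 to 120287349, opposite strand) and Foxo6os do not overlap, and their transcripts share no 50-base word on either strand. Whether the counting used the strand is not given in the sources used here.

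In the list from the insulin receptor to Akt, 1 of 26 genes tested fell and none rose, with a median of 0.20. The member that fell was Grb14, an adaptor that binds the insulin receptor and inhibits it: it had 18.5, 21.4, 22.7 and 21.1 CPM in the controls and 11.1, 7.12, 8.19, 2.36 and 5.09 CPM under STZ, a change of -1.62 ± 0.36 (SE; adjusted p = 0.0269). No STZ library reached a control, but the call was lost without library 1, 5, 9, 19, 7, 14, 17 or 21 (adjusted p from 0.0503 to 0.074). Irs2, an insulin receptor substrate and FoxO target, had 22.7, 33.4, 18.9 and 13.1 CPM in the controls and 26.9, 22.7, 37.7, 82.3 and 20.2 CPM under STZ and did not pass (0.80 ± 0.54, adjusted p = 0.52).

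Genes linked to FoxO factors in earlier work (28 tested) included 3 that rose and none that fell, with 23 changes above 0 and a median of 0.54. Without library 17 the list had 2 that rose and a median of 0.42; over the 9 fits that left out 1 library, 0 (without library 1) to 4 (without library 3) rose, and 1 without library 19. With the run as a block 5 rose. Sesn1, a sestrin that restrains mTORC1, had 48.6, 64.3, 66 and 46.3 CPM in the controls and 129, 112, 82.2, 234 and 111 CPM under STZ and rose by 1.25 ± 0.25 (SE; adjusted p = 0.0154); the call was lost without library 1 or 19 (adjusted p = 0.0825 and 0.0701). Cat, the peroxisomal catalase, had 67.5, 74.6, 84.4 and 98 CPM in the controls and 187, 165, 209, 154 and 176 CPM under STZ and rose by 1.14 ± 0.22 (SE; adjusted p = 0.0117); the call was lost without library 1 (adjusted p = 0.0743). Cited2, a transcriptional co-regulator, had 48.9, 66.8, 37.2 and 61.4 CPM in the controls and 75, 74.5, 79.1, 140.0 and 113 CPM under STZ and rose by 0.85 ± 0.20 (SE; adjusted p = 0.039), and the call was lost without library 1, 9, 19, 14, 17 or 21 (adjusted p from 0.0503 to 0.147). STZ library 17 was the highest of the 9 for Sesn1 and Cited2 but the lowest of the 5 for Cat.

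The FoxO core motif GTAAACA was searched on both strands of RefSeq promoter windows (GRCm38.p6, 300 bases that start upstream of a gene and run past its start). The motif was in 3.65% of 32851 windows, in those of 4.05% of 27025 genes, and in 4 of the 24 list members that have a window: Sesn1, Trim63, Tspan8 and Txnip. All 3 called members of the list have a window, and those of Cat and Cited2 hold no match. Of 2 Sesn1 windows 1, chr10:41810324-41810623 on the + strand, is shown, because Sesn1 was the member of the list with both a call and a match, which is in capitals.

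Sesn1: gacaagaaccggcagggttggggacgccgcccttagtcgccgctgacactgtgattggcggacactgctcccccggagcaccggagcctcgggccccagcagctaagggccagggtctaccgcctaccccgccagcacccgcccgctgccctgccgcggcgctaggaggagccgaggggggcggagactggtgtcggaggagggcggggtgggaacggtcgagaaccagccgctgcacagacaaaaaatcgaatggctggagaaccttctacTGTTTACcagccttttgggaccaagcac

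Neither of the best known atrophy genes of muscle passed in the main fit. Fbxo32 (atrogin-1) and Trim63 (MuRF1) are ubiquitin ligases that mark muscle proteins for the proteasome. Fbxo32 had 405, 1160, 560.3 and 374 CPM in the controls and 2312, 1825, 1064, 5602 and 1942 CPM under STZ, a change of 2.03 ± 0.59, adjusted p = 0.0906 with the groups overlapping through control library 5 and STZ library 14. Fbxo32 did pass by DESeq2 (adjusted p = 0.00953) and by limma voom (0.021). It also passed by edgeR in the floxed libraries alone without library 17 (0.0453), and not in the other settings. Trim63 had 588, 1242, 1273 and 436 CPM in the controls and 2952, 1343, 866, 8028 and 1517 CPM under STZ, with library 17 far above the others; the change was 1.73 ± 0.74, adjusted p = 0.275, and 0.94 without library 17. Cdkn1a, a cell cycle inhibitor, had 283 CPM in library 17 and 32.9 to 69.5 in the other STZ libraries, against 28.6 to 54 in controls (1.22 ± 0.61, adjusted p = 0.362).

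Protein breakdown lists had no call in either direction. Ubiquitin ligases and ubiquitin (26 genes) had a median of 0.33, and 0.12 without library 17. Autophagy genes (36) had a median of 0.19, lysosomal genes (32) 0.10, proteasome subunits (35) 0.04 and calpains and caspases (17) 0.12. Without library 17 these medians were 0.122, 0.04, -0.085 and -0.016 in turn. Bnip3, a mitophagy receptor and the autophagy gene with the lowest p, had 143, 151, 169.5 and 216 CPM in the controls and 232, 333, 295, 795 and 270.4 CPM under STZ. Every STZ library was above every control for Bnip3, but the change did not pass (1.18 ± 0.38, adjusted p = 0.126). Bnip3 did pass by DESeq2 (adjusted p = 0.0465) and by limma voom (0.0295). By edgeR it passed with the floxed libraries of runs 1, 2 and 6 (0.0283) and with the floxed libraries alone without library 17 (0.0262).

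**Figure D2:**
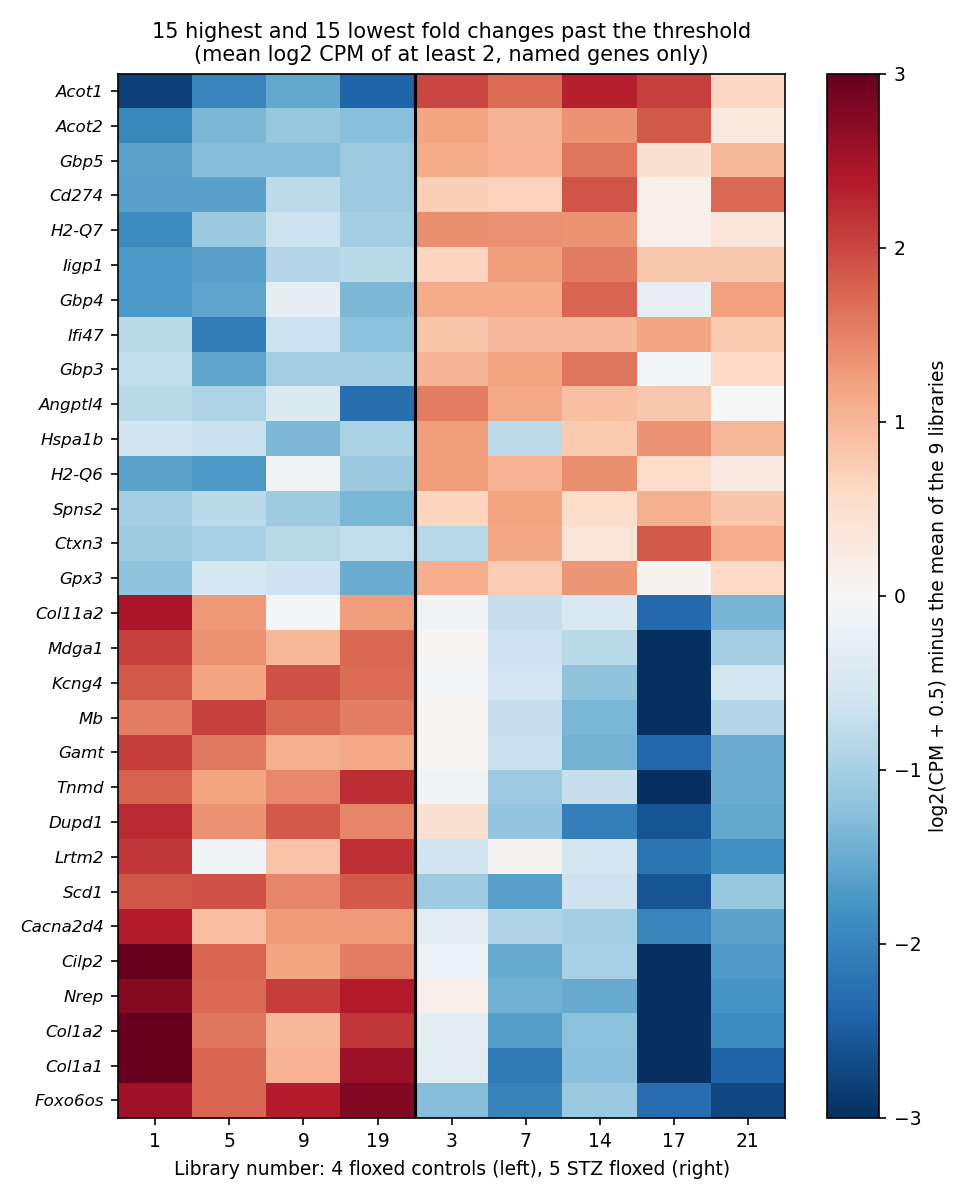
Level of the 15 highest and 15 lowest named fold changes past the threshold in each of the 9 libraries, as log2(CPM + 0.5) minus the gene's mean over the 9; columns are libraries and the colour scale stops at 3 in either direction. Library 3 is the palest STZ column for most of the lower genes and library 17 the darkest.

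Fuel genes held the largest rise. Acot1 (chromosome 12, 84009490 to 84018371, GRCm38) and Acot2 (chromosome 12, 83987861 to 83993873) are neighbouring thioesterases, of the cytosol and the mitochondrion, which cut fatty acids from coenzyme A and are classical PPAR alpha targets. Acot1 had 0.418, 1.11, 1.72 and 0.716 CPM in the controls and 25.1, 20.1, 31.7, 26.2 and 9.41 CPM under STZ: the lowest STZ library, 21, was above the highest control. Acot2 had 13.5, 20.6, 23.8 and 22 CPM in the controls and 122, 108, 135, 192 and 64.9 CPM under STZ, with the same library lowest. Acot2 rose by 2.64 ± 0.36 (SE; adjusted p = 0.000514), and the rise of Acot1 was 4.51 ± 0.50 (SE; adjusted p = 3.9e-05); without library 17 these were 2.45 and 4.48.

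The paralogs share 50-base words that make up 13.6% of the Acot1 and 24.5% of the Acot2 transcript sequence, so their counts are uncertain. Acot3 and Acot5, other members of the cluster, had 0 counts in all 9 libraries. Acot7, a thioesterase that cuts long-chain acyl-CoA, moved the other way: it had 9.33, 13.9, 9.99 and 8.59 CPM in the controls and 6.71, 5.5, 4.55, 3.64 and 5.55 CPM under STZ and fell by 1.00 ± 0.24 (SE; adjusted p = 0.0357); the call was lost without library 1, 5, 9, 19, 7, 14, 17 or 21 (adjusted p from 0.061 to 0.136).

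Fatty acid uptake and lipid droplet genes (32 tested) included 2 that rose and none that fell, with a median of 0.17. Angptl4, a secreted inhibitor of lipoprotein lipase, had 9.19, 8.35, 12.1 and 3.04 CPM in the controls and 48.9, 36.9, 31.1, 29.3 and 16.7 CPM under STZ and rose by 1.99 ± 0.44 (SE; adjusted p = 0.0269); the call was lost without library 1, 5, 19, 7, 14 or 17 (adjusted p from 0.0503 to 0.0922). Slc27a1, the fatty acid transport protein FATP1, had 109, 136, 77.7 and 84.4 CPM in the controls and 330.5, 369, 265, 92 and 146 CPM under STZ and rose by 1.24 ± 0.31 (SE; adjusted p = 0.0474). Library 17 lay inside the control range for Slc27a1, and without it the change was 1.47 (adjusted p = 0.00777); the call was lost without library 1, 5, 9, 19, 3, 7 or 14 (adjusted p from 0.0677 to 0.151).

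Of 35 fatty acid oxidation genes none passed, and the median was 0.11. Acadl, the long-chain acyl-CoA dehydrogenase, had the lowest p of the list (0.99 ± 0.30, adjusted p = 0.106), with 148, 191, 194 and 112 CPM in the controls and 449, 424, 325, 170.1 and 238 CPM under STZ. With the run of library codes as a block 2 genes of the list rose, Acadl among them (1.28, adjusted p = 0.00432). Cpt1b, the gate of fatty acids into mitochondria, had 5.85, 10.6, 6.72 and 4.12 CPM in the controls and 8.61, 10, 7.54, 4.18 and 6.48 CPM under STZ and a change of 0.12 ± 0.31, adjusted p = 0.899. Ucp3, a mitochondrial uncoupling protein, had 251, 372, 409.9 and 87 CPM in the controls and 363, 302, 183, 82.7 and 136 CPM under STZ, a change of -0.39 ± 0.47, adjusted p = 0.754.

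Scd1, the desaturase that makes monounsaturated fatty acids, fell most among lipid genes. It had 353, 364, 270.3 and 346 CPM in the controls and 45.5, 31.1, 62.7, 15.8 and 43.8 CPM under STZ, and the highest STZ library held less than the lowest control. The change was -3.06 ± 0.46 (SE; adjusted p = 0.00138), with differences of -2.94, -3.53 and -2.97 in the 3 runs (libraries 1 and 3, 5 and 7, 19 and 21). It was the only called member of 27 genes of fatty acid and sterol synthesis, whose median was -0.25.

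Ketone body genes (11 tested) had 1 member higher and 1 lower. Oxct1, the transferase that activates acetoacetate for burning, had 469, 620.0, 508 and 493 CPM in the controls and 185, 159, 173, 107 and 165 CPM under STZ and fell by 1.73 ± 0.25 (SE; adjusted p = 0.000924). Acss1, the mitochondrial acetyl-CoA synthetase, had 30.6, 35.9, 37.9 and 27.2 CPM in the controls and 101, 86.1, 70.2, 96.9 and 56.1 CPM under STZ and rose by 1.32 ± 0.26 (SE; adjusted p = 0.0116); the call was lost without library 1 or 19 (adjusted p = 0.0661 and 0.055). Neither gene's groups overlapped, and library 17 was the lowest STZ library for Oxct1.

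Slc2a4, the insulin-responsive glucose transporter GLUT4, had 1094, 1201, 926 and 921 CPM in the controls and 498, 397, 372, 350.5 and 394 CPM under STZ. It fell by 1.36 ± 0.23 (SE; adjusted p = 0.00387), and the call held in all 9 fits that left out 1 library (adjusted p at most 0.0184). Hk2, the muscle hexokinase, had 552, 792, 528 and 622 CPM in the controls and 322, 334, 373, 419.9 and 388 CPM under STZ, which separated the groups without passing (-0.76 ± 0.30, adjusted p = 0.238). Hk2 did pass by limma voom (adjusted p = 0.0215). By edgeR it passed with the 9 floxed libraries alone (0.0416) and with those of runs 1, 2 and 6 (0.00707). It also passed with the floxed libraries alone without library 17 (0.0134). Slc2a4 was the only one of 29 glucose uptake and glycolysis genes to pass in the main fit. Of the 29 changes 25 were below 0, and the median was -0.50, or -0.28 without library 17.

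The gate from glucose to the citric acid cycle showed 1 call in 14 genes. Dlat, the E2 subunit of pyruvate dehydrogenase, had 150.3, 143, 174 and 167 CPM in the controls and 98.8, 82.9, 91.2, 52.7 and 74.8 CPM under STZ and fell by 0.99 ± 0.20 (SE; adjusted p = 0.015); the call was lost without library 1 or 19 (adjusted p = 0.0519 and 0.0506). Pdk4, the kinase that shuts pyruvate dehydrogenase, had 889.5, 1649, 1754 and 432 CPM in the controls and 4200, 3912, 2282, 3515 and 2051 CPM under STZ. Every STZ library was above every control for Pdk4, whose change was 1.43 ± 0.49, adjusted p = 0.157 and did not pass; with the run as a block it did (1.95, adjusted p = 0.00256).

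Slc37a4 and Map2k6 are given because they are among the 27 genes named above, and were chosen after their values were seen. Slc37a4 carries glucose 6-phosphate into the endoplasmic reticulum. It had 189, 168, 192 and 199 CPM in the controls and 74.7, 39.2, 46, 16.2 and 49.7 CPM under STZ and fell by 2.05 ± 0.31 (SE; adjusted p = 0.00107). Map2k6, the kinase MKK6 upstream of p38, had 63.5, 56.5, 74.8 and 70 CPM in the controls and 22.3, 17.8, 9.49, 6 and 15.9 CPM under STZ and fell by 2.21 ± 0.31 (SE; adjusted p = 0.000514). Their groups did not overlap, and library 3 was the STZ library nearest the controls for both.

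Respiratory chain subunits encoded in the nucleus had changes below 0 throughout, while few single genes passed. Complexes II to V (42 genes) had 3 genes lower and none higher, no change above 0, and a median of -0.84. Complex I (37 genes) had 1 lower, no change above 0, and a median of -0.77. Without library 17 no member of either list was called and the medians were -0.61 and -0.59; of the other fits that left out 1 library, only those without library 3 (6 and 2 genes) and library 9 (1 and 0) had a call. Within the 3 runs the complex II to V median was -0.17 between libraries 1 and 3, -0.67 between 5 and 7 and -0.62 between 19 and 21. With the run as a block the median was -0.54 for complexes II to V and -0.56 for complex I.

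Cox5b, a subunit of cytochrome oxidase, had 80.3, 107, 71.5 and 82.7 CPM in the controls and 60.7, 34.3, 35.5, 23.6 and 33.9 CPM under STZ and fell by 1.18 ± 0.26 (SE; adjusted p = 0.0263); the call was lost without library 1, 5, 19, 7, 14, 17 or 21 (adjusted p from 0.0599 to 0.0944). Atp5g3, a ring subunit of ATP synthase, had 546, 596, 667 and 615 CPM in the controls and 437, 294, 275, 170.1 and 293 CPM under STZ and fell by 1.04 ± 0.23 (SE; adjusted p = 0.0269), a call that held only without library 3 among the 9 fits leaving out 1 library (highest adjusted p of the others 0.0778). Cyc1, cytochrome c1, fell by 0.85 ± 0.22, adjusted p = 0.0495. Ndufs8, an iron-sulphur subunit of complex I, fell by 1.01 ± 0.26, adjusted p = 0.0492; these calls too held only without library 3, with adjusted p up to 0.158 and 0.146, and with the run as a block the Ndufs8 call was lost (adjusted p = 0.0695). In all 4 genes library 17 was the lowest and library 3 the highest STZ library. Uqcrc1, a core subunit of complex III that all muscle uses, is listed at 0 in all 9 libraries.

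Other mitochondrial lists had medians below 0 with few calls. Citric acid cycle enzymes (21) had a median of -0.56, mitochondrially encoded transcripts (14) -0.55, mitochondrial ribosomal proteins (76) -0.42 and import translocases (22) -0.37, none with a call. Fusion and fission genes (15) had 2 lower: Dnm1l, the fission GTPase DRP1, had 96.2, 107, 108 and 114 CPM in the controls and 69.5, 59.2, 66.3, 60.5 and 70.8 CPM under STZ (-0.70 ± 0.16, adjusted p = 0.0274), and Mief2, its receptor, changed by -0.67 ± 0.16, adjusted p = 0.0374. The Dnm1l call held only without library 3 or 21 and the Mief2 call only without library 3. Regulators of oxidative metabolism (30) had 2 lower, Ppara, the fatty acid receptor PPAR alpha, with 21, 30.4, 23.9 and 15 CPM in the controls and 6.86, 6.8, 9.88, 9.63 and 9.25 CPM under STZ (-1.40 ± 0.31, adjusted p = 0.0269), and Perm1, a muscle co-regulator (-1.07 ± 0.27, adjusted p = 0.0488). For Ppara, the call was lost without library 1, 5, 9, 7, 14 or 17 (adjusted p from 0.0503 to 0.0981), and the Perm1 call held only without library 3. Ppargc1a (PGC-1 alpha) had 65, 165, 106 and 76.8 CPM in the controls and 45.4, 51.8, 48.4, 58 and 55.5 CPM under STZ and did not pass (-0.99 ± 0.26, adjusted p = 0.0611). It did pass by DESeq2 (adjusted p = 0.0214) and by limma voom (0.0179). By edgeR it passed with the floxed libraries alone without library 17 (0.0338).

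Genes of oxygen storage and iron were among those that fell. Mb encodes myoglobin, the oxygen store of oxidative fibres, and had 979, 1397, 1125 and 987 CPM in the controls and 349.7, 210.4, 131, 20.9 and 183 CPM under STZ. Every STZ library was below every control and library 17 lowest of all; Mb fell by 2.65 ± 0.47 (SE; adjusted p = 0.00633), and by 2.34 without library 17 (adjusted p = 0.00101). Tfrc, the transferrin receptor that brings in iron, had 184, 171, 198 and 349 CPM in the controls and 46.6, 58, 59.8, 75.3 and 76.8 CPM under STZ and fell by 1.83 ± 0.34 (SE; adjusted p = 0.00836). Alas1, the first enzyme of heme synthesis, had 234, 242, 159 and 135 CPM in the controls and 135, 97.5, 72.4, 69.8 and 59.1 CPM under STZ and fell by 1.15 ± 0.26 (SE; adjusted p = 0.0269); the call was lost without library 1, 5, 7, 14, 17 or 21 (adjusted p from 0.0528 to 0.116). These were the 3 called members of 19 iron and myoglobin genes, whose median was -0.14.

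Creatine and adenylate genes (19) had 2 lower and a median of -0.33. Ckmt2, the mitochondrial creatine kinase, had 1224, 1394, 1822 and 1556 CPM in the controls and 796, 422, 573, 127 and 453 CPM under STZ and fell by 1.66 ± 0.37 (SE; adjusted p = 0.0263); the call was lost without library 1, 5, 9, 19, 7 or 21 (adjusted p from 0.0547 to 0.0778). Gamt, which makes creatine, had 18.2, 12.8, 8.78 and 9.3 CPM in the controls and 4.09, 2.27, 1.17, 0.364 and 1.08 CPM under STZ and fell by 2.77 ± 0.67 (SE; adjusted p = 0.0432); the call was lost without library 1, 5, 9, 19, 7, 14, 17 or 21 (adjusted p from 0.0668 to 0.15). Both were lowest in library 17 and highest, among STZ libraries, in library 3.

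Amino acid genes showed few calls. Branched-chain breakdown (23 genes) had a median of -0.47 and 1 gene lower, Ivd, a dehydrogenase of leucine breakdown (-0.82 ± 0.20, adjusted p = 0.0432), a call that held only without library 3. Slc7a2, a transporter of arginine and lysine, had 67.5, 116, 73.9 and 74.8 CPM in the controls and 161, 269.7, 237, 267 and 214 CPM under STZ and rose by 1.47 ± 0.31 (SE; adjusted p = 0.0204); the call was lost without library 1, 9, 19 or 7 (adjusted p from 0.0509 to 0.0929). Slc38a3, a glutamine transporter, had 63.1, 74.3, 52.9 and 54.2 CPM in the controls and 40, 33, 30, 11.8 and 17.1 CPM under STZ and fell by 1.21 ± 0.30 (SE; adjusted p = 0.0432), a call that also held only without library 3 among the 9 fits. Amd2, close in sequence to Amd1 (76.7% of the 50-base words of Amd1 are in Amd2), fell by 1.94 ± 0.48, adjusted p = 0.0432 and is uncertain for that reason; with the run as a block it did not pass (adjusted p = 0.134).

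Ddah1, which degrades asymmetric dimethylarginine, an inhibitor of nitric oxide synthases, had 9.05, 12.8, 8.78 and 11.6 CPM in the controls and 3.36, 1.94, 3.25, 1.82 and 2.78 CPM under STZ. The groups were well apart, the change was -1.96 ± 0.24 (SE; adjusted p = 8e-05), and the call held in all 9 fits that left out 1 library (adjusted p at most 0.000686). It was the only called gene of 10 in the nitric oxide list, whose median was -0.11.

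Antioxidant genes (40) had 2 higher and a median of 0.03: Cat, above, and Gpx3, the secreted glutathione peroxidase. Gpx3 had 102, 166, 156 and 85.2 CPM in the controls and 506, 405, 594, 254 and 359.7 CPM under STZ and rose by 1.73 ± 0.31 (SE; adjusted p = 0.00678); the call held in all 9 fits that left out 1 library (adjusted p at most 0.0498). Hspa1b, an inducible HSP70, had 2.65, 2.51, 1.38 and 1.97 CPM in the controls and 10.9, 2.27, 7.8, 11.6 and 9.1 CPM under STZ, with STZ library 7 inside the control range (1.99 ± 0.43, adjusted p = 0.0217), and shares 62.3% of its 50-base words with Hspa1a. The Hspa1b call was lost without library 1, 5, 9, 19 or 17 (adjusted p from 0.0533 to 0.0802).

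**Figure D3:**
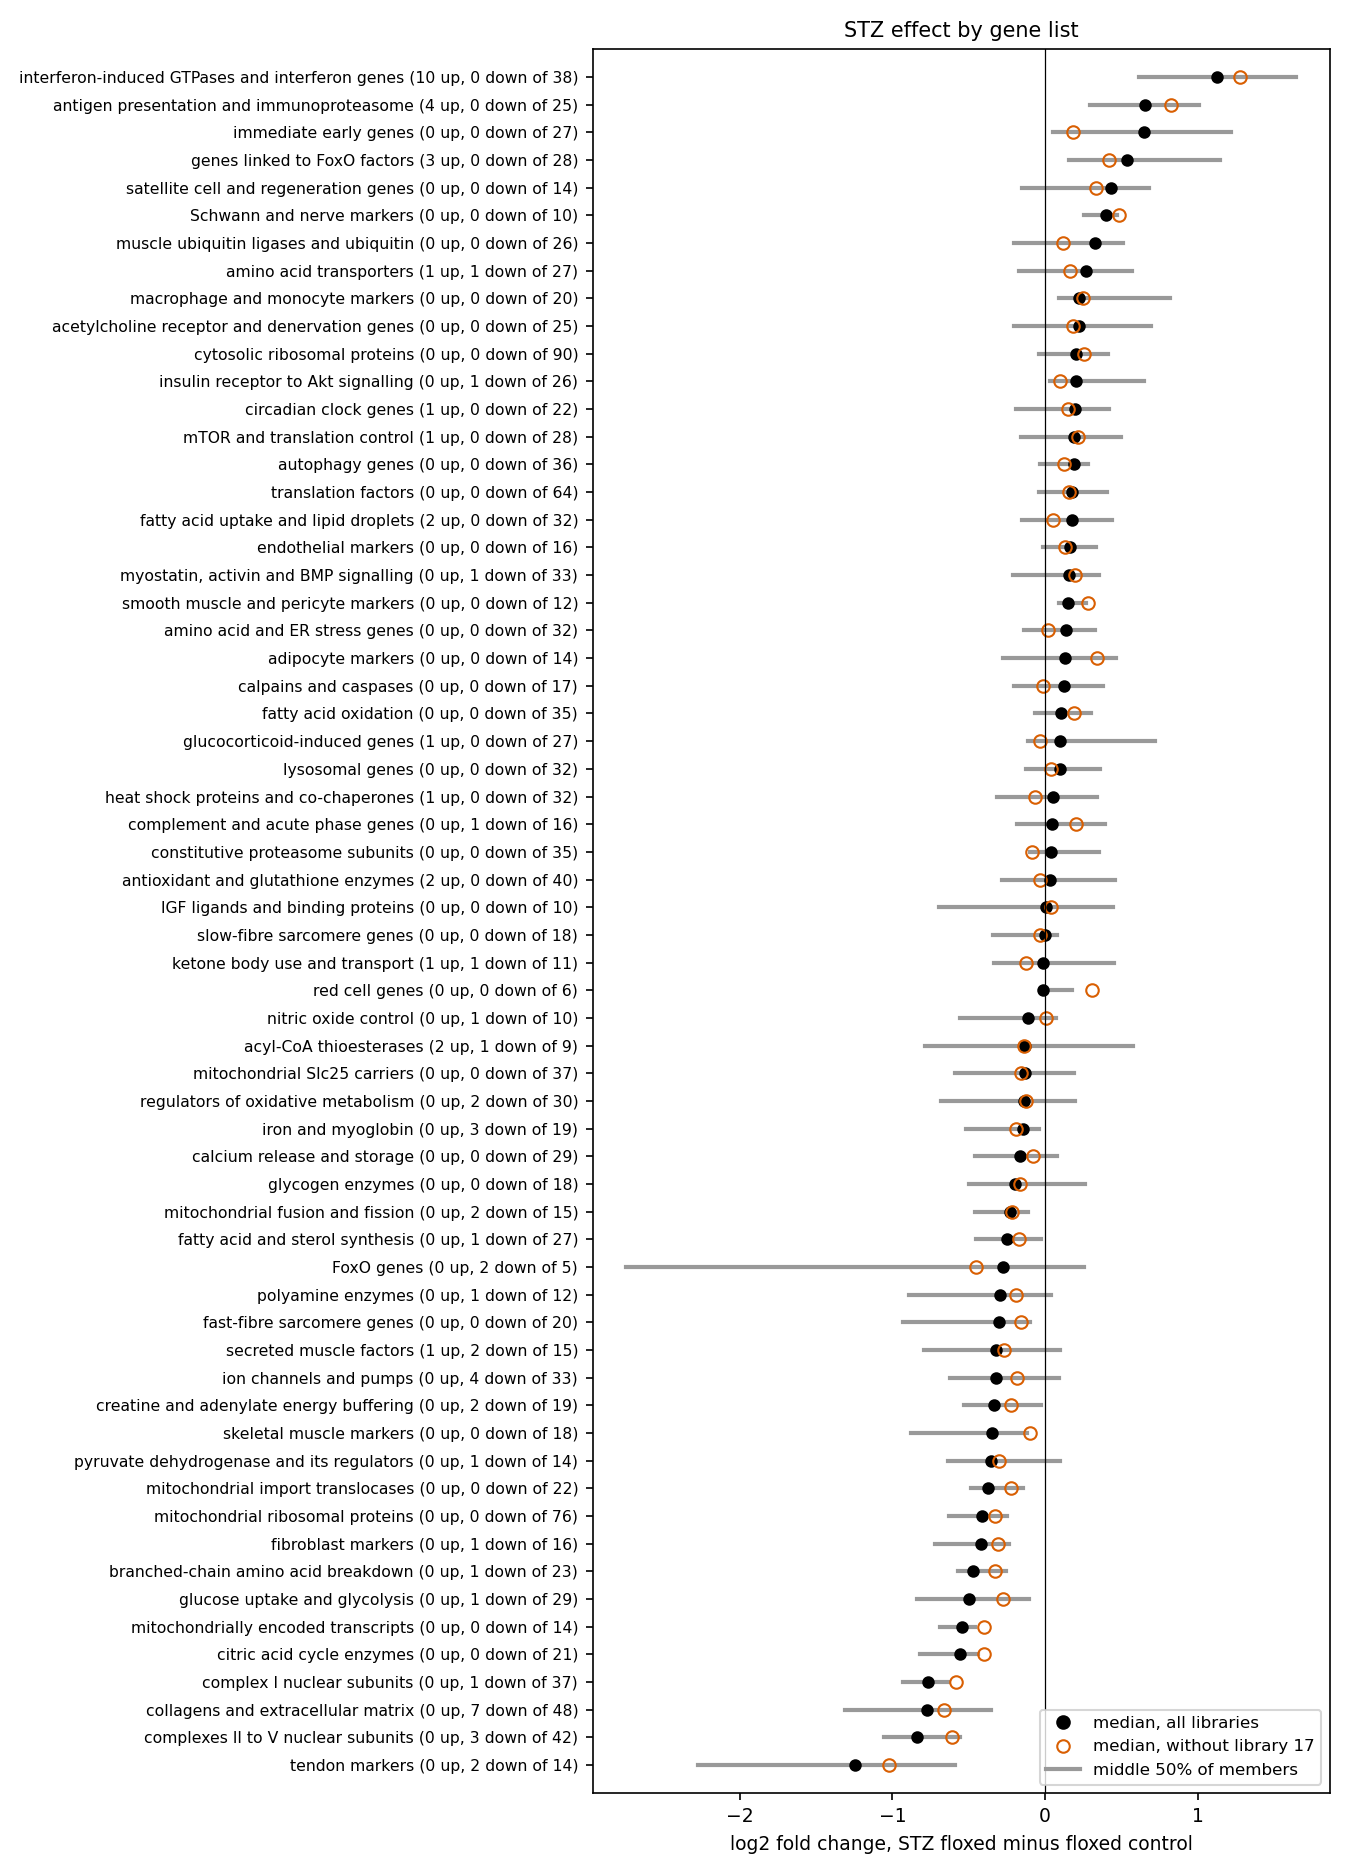
Median log2 fold change (STZ floxed minus floxed control) of each gene list with 5 or more genes tested, with all libraries (filled points) and without library 17 (open points); grey bars span the middle 50% of members, and the counts called in each direction follow each name. Of these lists the interferon list has the highest median (1.12) and the tendon list the lowest (-1.25), and several mitochondrial, glycolytic and fibre lists lie nearer 0 without library 17.

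The interferon list had the highest median of the lists with more than 1 gene tested. Interferon gamma induces guanylate-binding proteins (GBPs) and immunity-related GTPases, which attack vacuoles of intracellular pathogens, and all interferons act through motifs named ISRE and GAS in the promoters of their targets. Of 38 genes tested 10 rose and none fell, 36 changes were above 0, and the median was 1.12. In the 3 runs the list medians were 1.11, 1.40 and 0.98. Without library 17 the median was 1.28 and 7 rose; without library 1, 5 or 19 there were 2, without library 14 there were 4 and without library 7 there were 6.

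Gbp5, Gbp3 and Gbp2 lie in 1 cluster on chromosome 3, and their promoter windows are shown with Irgm1 because each was called and holds an ISRE. Tgtp2 was called and holds an ISRE too, but its window is not shown. Of 2 Gbp3 windows only the 1 with a match is shown. ISRE was searched as GAAA, any 2 bases and GAAA, and GAS as TTCNNNGAA, on both strands of the same RefSeq windows (GRCm38.p6); matches of the same motif can overlap. ISRE was in 3.44% and GAS in 8.3% of 32851 windows, and in those of 3.99% and 9.55% of 27025 genes. Of the 38 list members 29 have a window, 15 with an ISRE and 11 with a GAS; of the 10 called genes 7 have one, 5 with an ISRE (Gbp2, Gbp3, Gbp5, Irgm1 and Tgtp2) and 2 with a GAS (Gbp5 and Tgtp2). Capitals mark the matches, which are both motifs in Gbp5 and ISRE alone in the other 3; the windows are chr3:142496684-142496983, chr3:142559794-142560093 and chr3:142620413-142620712 on the + strand and chr11:48871371-48871670 on the - strand.

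Gbp5: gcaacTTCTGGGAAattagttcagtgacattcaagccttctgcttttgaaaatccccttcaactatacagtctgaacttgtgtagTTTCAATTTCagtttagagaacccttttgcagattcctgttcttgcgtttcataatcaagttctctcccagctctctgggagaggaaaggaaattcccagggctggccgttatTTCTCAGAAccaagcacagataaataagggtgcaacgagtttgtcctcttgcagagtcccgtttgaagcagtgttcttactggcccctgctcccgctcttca

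Gbp3: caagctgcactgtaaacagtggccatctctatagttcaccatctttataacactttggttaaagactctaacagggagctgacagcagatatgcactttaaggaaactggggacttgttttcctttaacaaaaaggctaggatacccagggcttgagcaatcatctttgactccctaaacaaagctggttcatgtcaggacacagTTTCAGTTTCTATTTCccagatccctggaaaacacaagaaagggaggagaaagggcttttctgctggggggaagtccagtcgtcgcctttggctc

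Gbp2: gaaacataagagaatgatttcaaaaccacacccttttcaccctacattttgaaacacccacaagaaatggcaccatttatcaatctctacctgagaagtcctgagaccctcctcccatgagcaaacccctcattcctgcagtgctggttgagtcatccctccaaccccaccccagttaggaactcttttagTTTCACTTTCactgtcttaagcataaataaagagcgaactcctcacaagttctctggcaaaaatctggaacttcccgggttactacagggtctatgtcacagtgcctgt

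Irgm1: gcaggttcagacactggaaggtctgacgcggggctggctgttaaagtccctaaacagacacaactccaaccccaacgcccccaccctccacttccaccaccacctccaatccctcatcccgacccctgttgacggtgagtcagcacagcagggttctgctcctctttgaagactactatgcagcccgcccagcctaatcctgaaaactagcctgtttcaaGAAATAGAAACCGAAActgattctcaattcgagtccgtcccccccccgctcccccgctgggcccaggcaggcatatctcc

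Gbp5 had 2.37, 3.06, 3.1 and 3.58 CPM in the controls and 18.4, 17.5, 25.8, 11.4 and 16.8 CPM under STZ and rose by 2.57 ± 0.46 (SE; adjusted p = 0.00633); the call held in all 9 fits that left out 1 library (adjusted p at most 0.0477). Gbp3 had 4.87, 2.51, 3.96 and 3.94 CPM in the controls and 17.7, 19.8, 27.1, 8.18 and 13.1 CPM under STZ and rose by 2.14 ± 0.42 (SE; adjusted p = 0.0116); the call held in all 9 fits that left out 1 library (adjusted p at most 0.0484). Both were highest in library 14 and lowest, among STZ libraries, in library 17, without overlap with the controls. Gbp2 had 6.27, 10.6, 10.5 and 8.41 CPM in the controls and 28.2, 29.5, 44.1, 17.6 and 23.1 CPM under STZ (1.68 ± 0.38, adjusted p = 0.0282). Gbp4 changed by 2.31 ± 0.49, adjusted p = 0.0217 and Gbp9 by 1.53 ± 0.37, adjusted p = 0.0432. These 2 genes overlap on the same strand of chromosome 5, so their counts are uncertain. The Gbp4 call was lost without library 1, 5, 19 or 14 (adjusted p from 0.0522 to 0.104).

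Of the immunity-related GTPases, Irgm1, Iigp1, Ifi47 and Tgtp2 were called, while Irgm2, Igtp and Tgtp1 did not pass (adjusted p = 0.279, 0.0915 and 0.0852). Irgm1 had 17.3, 14.5, 20.3 and 16.1 CPM in the controls and 31.7, 35.3, 39.5, 30.9 and 27.1 CPM under STZ and rose by 0.94 ± 0.19 (SE; adjusted p = 0.017); the call was lost without library 1, 5, 19 or 14 (adjusted p from 0.0502 to 0.0712). Iigp1 (Irga6) had 4.87, 5.29, 9.13 and 9.66 CPM in the controls and 27.1, 41.8, 51.9, 30.7 and 30.7 CPM under STZ and rose by 2.32 ± 0.48 (SE; adjusted p = 0.0198); the call was lost without library 1, 5 or 19 (adjusted p = 0.0917, 0.0688 and 0.0504). Ifi47 (Irgd) rose by 2.28 ± 0.52, adjusted p = 0.0292, a call that held only without library 3 or 21 and was lost with the run as a block (adjusted p = 0.0608). Tgtp2 (2.66 ± 0.65, adjusted p = 0.0432) shares 85.8% of its 50-base words with Tgtp1, so its count is uncertain.

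Cd274 encodes PD-L1, the ligand by which cells restrain T cells. It had 3.06, 3.06, 5.86 and 4.65 CPM in the controls and 17.5, 17.2, 40.3, 11.8 and 35.3 CPM under STZ, every STZ library above every control, and rose by 2.55 ± 0.52 (SE; adjusted p = 0.0165); the call was lost without library 1, 5 or 19 (adjusted p = 0.0898, 0.0605 and 0.055). Tnfsf10, the death ligand TRAIL and itself an interferon target, is in none of the lists and was looked up after its values were seen. It had 5.15, 6.68, 5.51 and 11.3 CPM in the controls and 19.1, 19.1, 30, 17.6 and 27 CPM under STZ, with a change of 1.66 ± 0.40, adjusted p = 0.042.

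Antigen presentation and immunoproteasome genes (25) had 4 higher, none lower and a median of 0.65, or 0.82 without library 17, when 4 were called as well. None was called without library 1, 1 without library 5, 7, 14 or 19, and 2 without library 9 or 21. H2-Q7, H2-Q6 and H2-Q4, class I genes of the H2-Q cluster, rose by 2.33 ± 0.45, adjusted p = 0.0112, 1.98 ± 0.46, adjusted p = 0.0314 and 1.41 ± 0.33, adjusted p = 0.0351. The H2-Q6 call was lost without library 1, 5, 19, 7 or 14 (adjusted p from 0.0615 to 0.138). The H2-Q4 call held only without library 3 or 17. H2-Q7 had 1.25, 2.51, 3.62 and 2.68 CPM in the controls and 16.5, 16.2, 16, 6.73 and 8.02 CPM under STZ; the call was lost without library 1 (adjusted p = 0.0707). Tap1, the peptide pump, had 3.48, 3.62, 5.51 and 4.29 CPM in the controls and 16.8, 11.3, 17.9, 8.72 and 10.5 CPM under STZ (1.63 ± 0.40, adjusted p = 0.0432), and the call held only without library 17. The H2-Q genes share 50-base words (12.3% of those of H2-Q6 are in H2-Q4), so their counts may have been divided. In the motif search above, 18 of the 25 genes have a window, 5 with an ISRE and 1 with a GAS. All 4 called genes have a window, and 0 of them hold an ISRE or a GAS.

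Markers of immune cells were measured beside these genes. None of 20 macrophage and monocyte markers passed; their median was 0.22, and their summed level was 203 to 270 CPM in controls and 234 to 355 CPM under STZ. Ccr2, a monocyte receptor, had 1.11, 5.29, 3.27 and 5.01 CPM in the controls and 9.2, 1.94, 10.5, 12.5 and 7.87 CPM under STZ (1.27 ± 0.75, adjusted p = 0.457). Lymphocyte markers summed to 0.278 to 1.55 CPM in controls and to 0 to 2.63 CPM in 4 STZ libraries, and to 37.6 CPM in library 14, which was also the highest of the 9 for Gbp5, Gbp3, Gbp2 and Cd274. Without library 14 Gbp5 and Gbp3 were still called. In bulk muscle, fewer cells of a type and less RNA per cell cannot be told apart, and the part of immune cells in these changes was not tested.

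**Figure D4:**
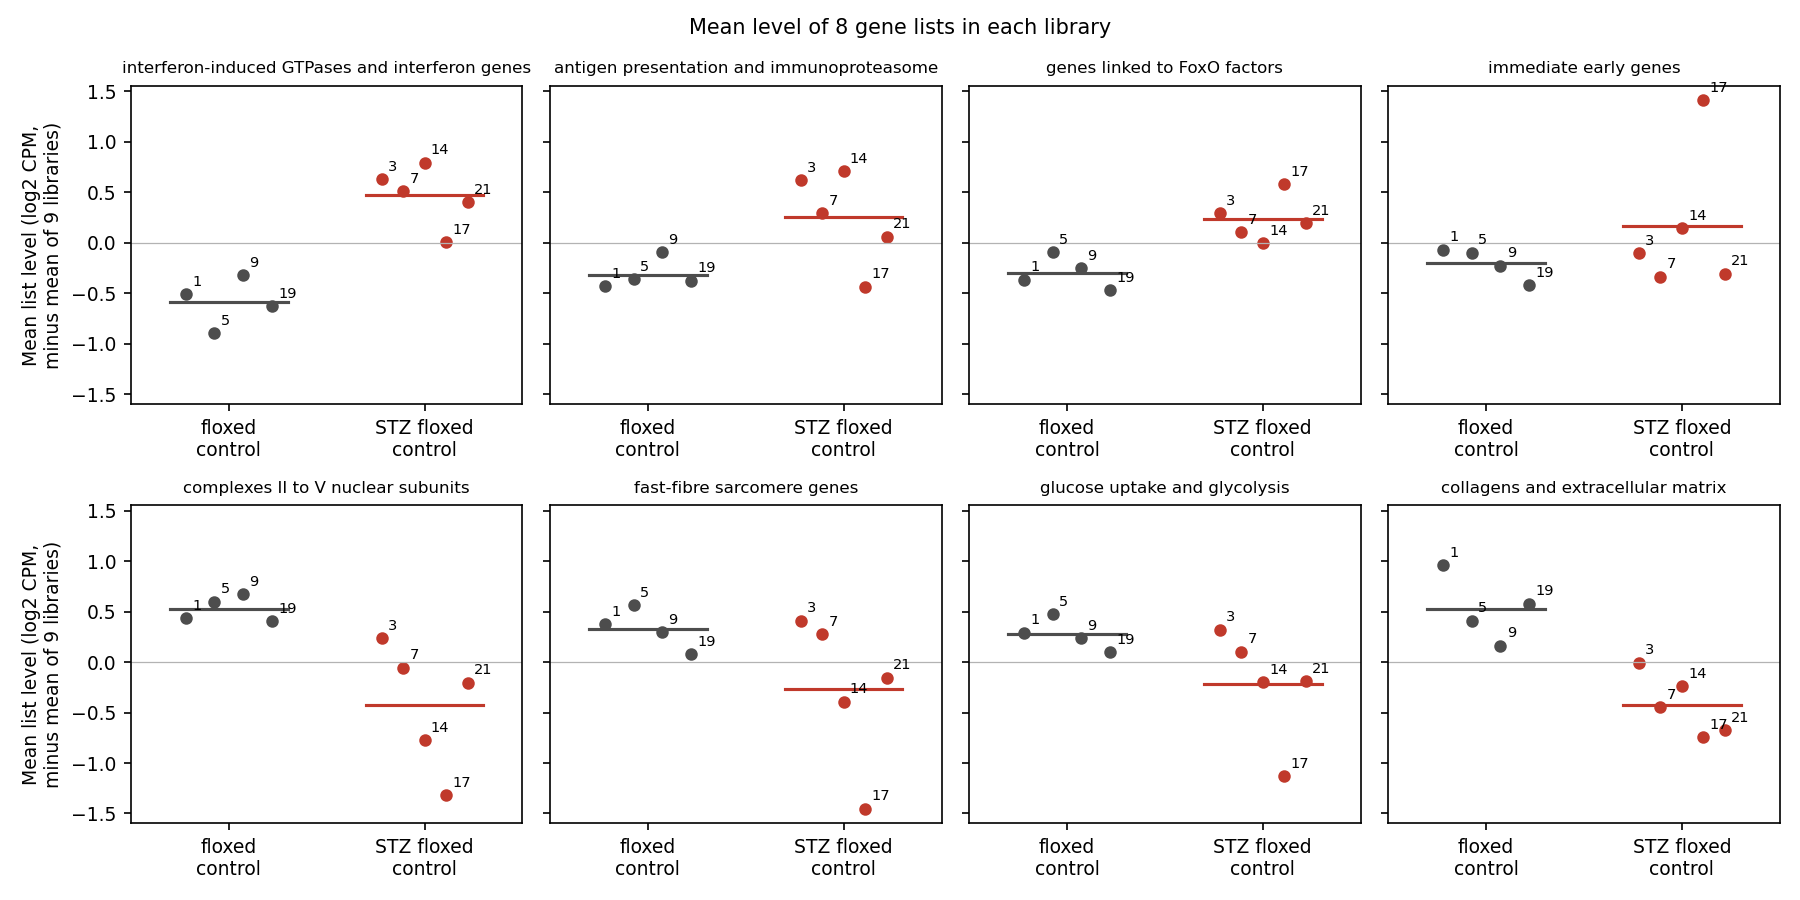
Mean log2 CPM of 8 gene lists in each library, minus the mean of the 9 libraries; points are libraries with their title numbers and horizontal bars are group means. Interferon, FoxO-linked, complex II to V and extracellular matrix lists separate the groups. The FoxO-linked list does so narrowly (-0.094 in control library 5, -0.002 in STZ library 14). The fast-fibre and immediate early lists are far from the rest in library 17 (-1.45 and 1.41).

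Some matrix genes fell under STZ, while most did not pass. Collagens and extracellular matrix (48 genes) had 7 lower, none higher, 6 changes above 0 and a median of -0.77. In 19 of the 48 every STZ library was below every control, against 5.17% of all genes tested. The same held for 19 of the 42 genes of complexes II to V. In 19 of the 38 interferon genes every STZ library was above every control, against 3.62% of all genes. Without library 17, 2 were called (median -0.66), and without library 1 none was (median -0.60); 1 was called without library 7, 2 without library 14 or 19 and 3 without library 21. With the run as a block 14 were lower. Control library 1 had the highest matrix level of the 9 (0.96 on the mean log2 scale, the other controls 0.16 to 0.58), and the STZ libraries lay between -0.74 and -0.01.

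Col1a1 and Col1a2 form type I collagen, the main fibre of tendon and of the muscle sheath. Col1a1 had 2803, 516, 316 and 938 CPM in the controls and 121, 35.3, 64.6, 13.6 and 29 CPM under STZ, and Col1a2 had 3240, 894, 582 and 1305 CPM in the controls and 238, 92.6, 125, 32.9 and 79.6 CPM under STZ. The lowest controls, both library 9, were above the highest STZ values, both library 3. Col1a1 fell by 4.43 ± 0.95 (SE; adjusted p = 0.0246), and Col1a2 fell by 3.73 ± 0.76 (SE; adjusted p = 0.0183). For Col1a1 the call was lost without library 1, 19, 7, 14, 17 or 21 (adjusted p from 0.0504 to 0.109), and for Col1a2 the call was lost without library 1, 7 or 17 (adjusted p = 0.0917, 0.0509 and 0.0526).

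Sparc, a collagen-binding glycoprotein, had 1393, 526, 427 and 928 CPM in the controls and 258, 164, 234, 199 and 190.3 CPM under STZ and fell by 1.97 ± 0.36 (SE; adjusted p = 0.00684); the call was lost without library 1 (adjusted p = 0.0566). Col15a1, of the basement membrane zone, had 121, 71, 47.7 and 72.6 CPM in the controls and 36.4, 22.3, 20.3, 8.36 and 13.4 CPM under STZ and fell by 1.95 ± 0.42 (SE; adjusted p = 0.0217); the call was lost without library 1, 19, 7, 14, 17 or 21 (adjusted p from 0.0509 to 0.109). Adamts2, which trims procollagen, fell by 1.68 ± 0.35, adjusted p = 0.0183, and the call was lost without library 1, 19, 7 or 14 (adjusted p from 0.0509 to 0.0917). Loxl2, which crosslinks collagen, fell by 1.96 ± 0.44, adjusted p = 0.0274, and Col4a1, of basement membranes, fell by 1.08 ± 0.27, adjusted p = 0.0488. The Loxl2 call was lost without library 1, 19, 7, 14, 17 or 21 (adjusted p from 0.0537 to 0.11). The groups did not overlap for any of these 5 genes.

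Tendon markers (14) had the lowest list median, -1.25, with 2 genes lower, and -1.02 with 1 lower when library 17 was left out (0 without library 1, 4 without library 3). Cilp2, a cartilage and tendon matrix protein, had 84.1, 31.7, 21.4 and 27.6 CPM in the controls and 8.03, 2.91, 4.42, 0.545 and 2.47 CPM under STZ and fell by 3.45 ± 0.69 (SE; adjusted p = 0.0154); the call was lost without library 1 (adjusted p = 0.0898). Tnmd, the tendon cell membrane protein tenomodulin, had 38.4, 25.3, 30.3 and 52.1 CPM in the controls and 10.2, 4.86, 6.5, 0.727 and 3.55 CPM under STZ and fell by 2.80 ± 0.68 (SE; adjusted p = 0.0432); the call was lost without library 1, 5, 9, 19, 7, 14, 17 or 21 (adjusted p from 0.0709 to 0.116), and with the run as a block (0.0533). Summed tendon markers were 853 to 1514 CPM in controls and 299.8 to 1019 CPM under STZ, so these ranges overlapped. Fibroblast markers (16) had 1 lower, Col15a1, a median of -0.42, and summed to 2892 to 3557 CPM and 1258 to 3303 CPM. The part of tendon or connective tissue in the dissected muscle was not tested.

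Nrep, a regulator of fibroblast behaviour and regeneration, had 306, 148, 193 and 238 CPM in the controls and 50.4, 16.5, 15.6, 1.82 and 13.1 CPM under STZ and fell by 3.50 ± 0.69 (SE; adjusted p = 0.0154); the call was lost without library 1 (adjusted p = 0.0588). Igfbp5, a matrix-bound IGF-binding protein, had 1517, 1116, 1062 and 1292 CPM in the controls and 651, 415, 488, 61.6 and 721 CPM under STZ and did not pass (-1.41 ± 0.46, adjusted p = 0.134) although the groups were apart. It did pass by limma voom (adjusted p = 0.0152). By edgeR it passed with the floxed libraries of runs 1, 2 and 6 (0.00169) and with the floxed libraries alone without library 17 (0.00588). Igf1 had 46.6, 21.4, 29.8 and 45.4 CPM in the controls and 16.6, 24.6, 31.5, 29.4 and 22.7 CPM under STZ (-0.53 ± 0.35, adjusted p = 0.513) and Mstn, myostatin, had 55.4, 65.4, 75.6 and 86.4 CPM in the controls and 56.5, 87.4, 63.3, 52 and 118 CPM under STZ (0.09 ± 0.41, adjusted p = 0.945), with overlapping groups for both.

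Smad3, the transducer of myostatin and TGF beta signals, varied little among the controls. It had 169, 162, 167 and 162 CPM in the controls and 70.1, 45.3, 63.5, 36.2 and 59.1 CPM under STZ and fell by 1.59 ± 0.34 (SE; adjusted p = 0.0204); the call was lost without library 1, 19, 7 or 17 (adjusted p from 0.0515 to 0.0707). It was the only called gene of 33 in the myostatin, activin and BMP list (median 0.16). Fndc5, the precursor of irisin, had 134, 127, 93.5 and 114 CPM in the controls and 82.2, 48.6, 35.5, 15.4 and 30.5 CPM under STZ and fell by 1.46 ± 0.31 (SE; adjusted p = 0.0188); the call was lost without library 1, 5, 19, 14 or 21 (adjusted p from 0.0504 to 0.0778).

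Ion channels and pumps (33) had 4 lower, none higher and a median of -0.33. Cacna2d4, an auxiliary calcium channel subunit, had 17.1, 5.85, 7.75 and 7.69 CPM in the controls and 2.19, 1.29, 1.17, 0.364 and 0.617 CPM under STZ and fell by 3.07 ± 0.47 (SE; adjusted p = 0.00121). Kcng4, a silent potassium channel subunit, had 70.2, 44.3, 73 and 61.7 CPM in the controls and 18.4, 12.6, 8.06, 0.545 and 13 CPM under STZ and fell by 2.57 ± 0.47 (SE; adjusted p = 0.00837). Kcnc1 (Kv3.1), a fast-repolarising potassium channel, had 163, 124, 104 and 184 CPM in the controls and 48, 49.5, 63.6, 32 and 40.9 CPM under STZ and fell by 1.62 ± 0.28 (SE; adjusted p = 0.00612). For these 3 genes the groups were apart, and the calls held in all 9 fits that left out 1 library, with adjusted p at most 0.0122, 0.034 and 0.0306. Kcna7, a muscle potassium channel, had 540.2, 534, 402 and 467 CPM in the controls and 287, 219.8, 255, 252 and 263 CPM under STZ (-0.93 ± 0.23, adjusted p = 0.0474), a call that held only without library 3 and was lost with the run as a block (adjusted p = 0.0506).

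Chrna2, an alpha subunit of the nicotinic acetylcholine receptor, rose by 2.80 ± 0.52 (SE; adjusted p = 0.00846) with 0.279, 0.835, 0.689 and 0.716 CPM in the controls and 6.57, 4.53, 4.55, 3.82 and 2.16 CPM under STZ, and was chosen after its values were seen. The Chrna2 call was lost without library 1 (adjusted p = 0.066). In TKO muscle Chrna2 rose by 2.81 ± 0.46 (adjusted p = 0.00676). The acetylcholine receptor and denervation list (25 genes), which does not hold Chrna2, had no call and a median of 0.22.

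Contractile genes had no call in the main fit. By DESeq2 and by limma voom 2 fast-fibre sarcomere genes were lower, and 3 were lower and 1 higher with the floxed libraries of runs 1, 2 and 6. Fast-fibre sarcomere genes (20) had a median of -0.30, and -0.16 without library 17; slow-fibre genes (18) had a median of -0.00 on this scale, with 9 changes above 0. Myh1, the myosin of fast IIx fibres, had 4407, 5703, 2886 and 3442 CPM in the controls and 2232, 2407, 2088, 742 and 2124 CPM under STZ and did not pass (-1.10 ± 0.32, adjusted p = 0.0883) although the groups were apart. Casq1, the calcium buffer of fast fibres, had 4265, 3393, 2850 and 4842 CPM in the controls and 2240, 1881, 1520, 372 and 1862 CPM under STZ (-1.28 ± 0.36, adjusted p = 0.0785). Both were far lower in library 17 than in any other library. Myh1 and Casq1 did pass by DESeq2 (adjusted p = 0.0252 and 0.0193) and by limma voom (0.0263 and 0.00834). By edgeR both passed with the floxed libraries of runs 1, 2 and 6 (0.00606 and 0.00429). The same held for the floxed libraries alone without library 17 (0.0262 and 0.0114). Casq1 also passed without library 3 (0.0472).

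Of the 171 genes 104 stand in no list. Spns2, which exports sphingosine 1-phosphate, had 50, 58.8, 49.3 and 39.5 CPM in the controls and 163, 236, 153, 217 and 184 CPM under STZ and rose by 1.95 ± 0.28 (SE; adjusted p = 0.000669); the call held in all 9 fits that left out 1 library (adjusted p at most 0.00511). Zcchc24, a zinc finger protein, had 146, 135, 137 and 190.2 CPM in the controls and 266, 333, 350.5, 466 and 428 CPM under STZ, with a change of 1.28 ± 0.20, adjusted p = 0.00138, and Il6st, the gp130 receptor chain shared by interleukin 6 cytokines, had 242, 272, 231 and 271 CPM in the controls and 372, 518, 452, 514 and 413 CPM under STZ (0.84 ± 0.18, adjusted p = 0.0217). Trp53inp2, a nuclear and autophagy cofactor, had 615, 439, 544 and 799 CPM in the controls and 275, 209, 293, 137 and 247 CPM under STZ and fell by 1.37 ± 0.24 (SE; adjusted p = 0.00633). Mpp3, a membrane scaffold, had 31.8, 40.4, 29.4 and 27.6 CPM in the controls and 10.9, 9.71, 7.02, 4 and 7.71 CPM under STZ (-2.04 ± 0.24, adjusted p = 4.98e-05) and Slc41a3, a magnesium carrier, had 140.5, 114, 130.4 and 112 CPM in the controls and 65, 27.5, 33.8, 15.3 and 35.3 CPM under STZ (-1.81 ± 0.32, adjusted p = 0.00633). These 5 other than Spns2 were chosen after their values were seen, and their groups did not overlap.

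The remaining high and low genes of the naming rule were Ctxn3, Dupd1, Lrtm2, Mdga1 and Col11a2. Ctxn3 rose by 1.88 ± 0.47, adjusted p = 0.0488, though STZ library 3 (36.9 CPM) lay inside the control range. Dupd1, a muscle phosphatase, fell by 2.91 ± 0.66, adjusted p = 0.0292, and Lrtm2 fell by 3.02 ± 0.69, adjusted p = 0.0316. Mdga1 fell by 2.50 ± 0.47, adjusted p = 0.0115 and Col11a2 fell by 2.38 ± 0.53, adjusted p = 0.0274. Among the 9 fits that left out 1 library, the Ctxn3 and Dupd1 calls held only without library 3. The Col11a2 call held only without library 3 or 9. Lrtm2 lost its call without library 1, 19, 14, 17 or 21, and Mdga1 without library 1. C7, a terminal complement component, was the 1 called gene of 16 complement and acute phase genes (-1.77 ± 0.44, adjusted p = 0.0432), a call that held only without library 21. Irx3os, an antisense transcript at Irx3 and among the 27 genes above, was at 1.81 to 8.95 CPM in the controls and at 0 to 0.154 CPM under STZ.

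Markers of the other cells of muscle showed no call. Endothelial markers (16) had a median of 0.16, adipocyte markers (14) 0.13, smooth muscle and pericyte markers (12) 0.15, Schwann and nerve markers (10) 0.40, satellite cell genes (14) 0.43 and red cell genes (6) -0.02. Cytosolic ribosomal proteins (90) had a median of 0.20 and translation factors (64) 0.18, also without a call. Immediate early genes (27) had a median of 0.65 that was 0.18 without library 17; no member passed.

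The STZ effect in FoxO-intact muscle was set beside that in TKO muscle, whose 6 STZ and 6 untreated libraries share no library with it. In TKO muscle 18 genes passed (0.142%), 9 of them also called in floxed muscle, which is 5.26% of the 171 and 50% of the 18. Of the 171 genes 159 changed with the same sign in TKO muscle, against 69.4% of all genes tested. Only Ddah1 passed the test of the difference between both STZ effects (0.0079% of genes; 493 genes at an unadjusted p under 0.05): it changed by -1.96 in floxed and by -0.03 ± 0.18 (adjusted p = 0.964) in TKO muscle, a difference of -1.92 (adjusted p = 0.018). That count was 0 to 2 over the fits that left out 1 floxed library, 0 with the run as a block and 4 by DESeq2.

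The difference did not pass for the other genes, some of which are given side by side as examples. Of the 70 named genes called in floxed muscle, 68 changed with the same sign in TKO muscle, and Mb and Smad3 did not. Acot1 changed by 4.51 in floxed and 4.18 ± 0.42 in TKO muscle, Acot2 by 2.64 and 2.53 ± 0.31, and Scd1 by -3.06 and -2.06 ± 0.40. Mb changed by -2.65 and 0.13 ± 0.39, Tfrc by -1.83 and -0.15 ± 0.29, and Smad3 by -1.59 and 0.08 ± 0.29. Gbp5 changed by 2.57 and 1.02 ± 0.38, and Col1a1 by -4.43 and -1.49 ± 0.76. Medians of the interferon list were 1.12 and 0.50, of the matrix list -0.77 and -0.44, and of complexes II to V -0.84 and -0.21.

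**Figure D5:**
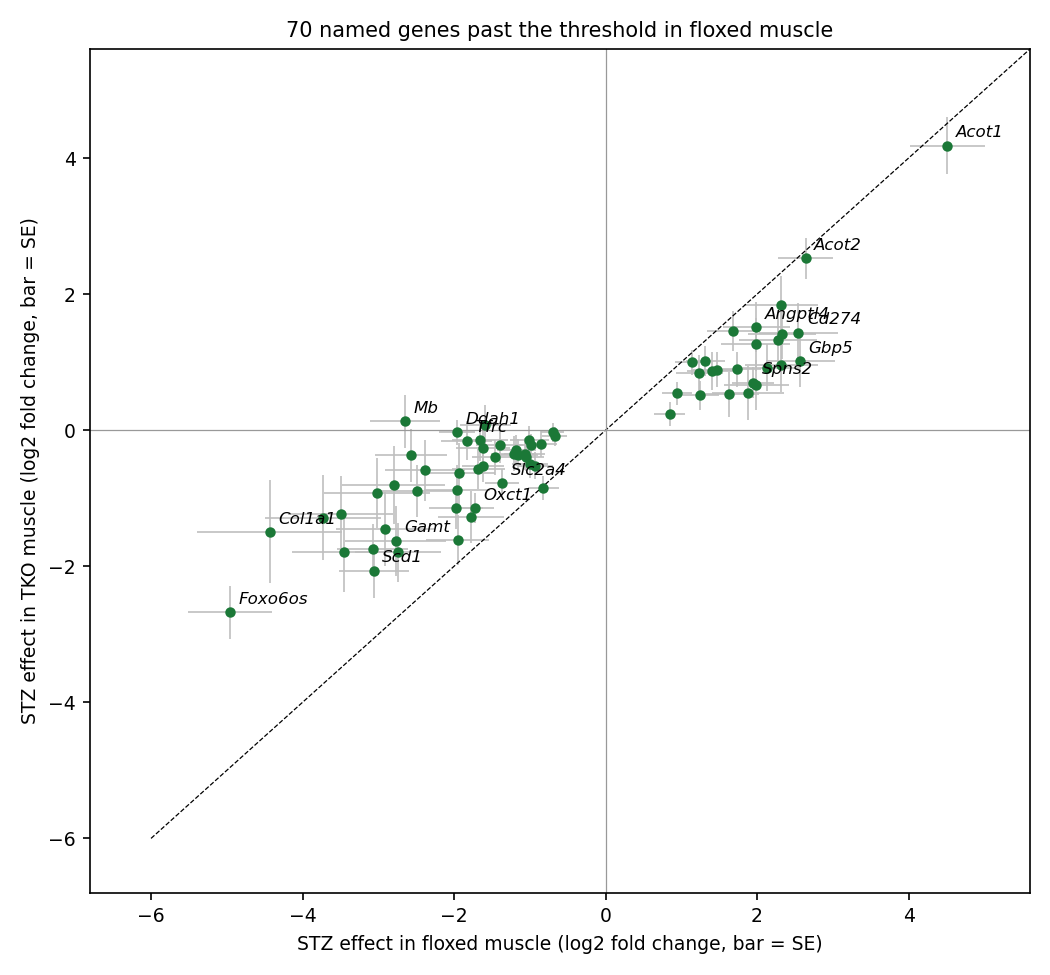
STZ effect in TKO muscle (vertical) against that in floxed muscle (horizontal), as log2 fold changes with SE bars, for the 70 named genes past the threshold in floxed muscle; the dashed line marks equal effects. The genes were chosen by the horizontal value, so their nearness to the horizontal axis is no test; Acot1 and Acot2 lie near the line and Ddah1 and Mb near a TKO effect of 0.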

How the data were processed

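The authors deposited raw counts of reads for each Ensembl gene of the mouse: the values are whole numbers with unequal library totals. The submitters' processing notes name STAR, featureCounts and the build GRCm38.p4. The sources used here do not give their versions, the annotation, the strand setting or the treatment of reads with several matches, so counts of near-identical or overlapping genes are uncertain. Of 46071 genes counted, 45229 matched a symbol of GENCODE release M21 (GRCm38), the source of coordinates; rows without a symbol held at most 0.057% of a library's counts.

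Groups came from the labels. Differential expression was tested in R 4.3.3 with edgeR 4.0.16: filterByExpr on the 4 groups kept 12658 genes, TMM scaled the libraries, and a robust quasi-likelihood model of 4 group means was fitted to all 21 libraries, the 12 TKO libraries adding to the filter, the scaling and the estimate of spread and giving the STZ effect in TKO muscle. Tests were two-sided, with Benjamini-Hochberg adjustment over all genes tested and a threshold of 0.05. The common biological coefficient of variation was 0.325. The SE is the log2 change divided by the square root of F. List levels are means of log2 CPM (prior count 2). Total counts of 3377613 to 7687823 per library set the counting error, and genes of a few CPM rest on few reads.

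The 9 libraries, the 64 gene lists and the named genes were chosen with earlier results of these data known. Named were the 15 highest and 15 lowest called fold changes where the mean log2 CPM was 2 or more (no predicted gene models or sex-linked genes), up to 6 called members of each list or else the member with the lowest p, 16 core genes of wasting and fuel use, and the FoxO genes. Lists were described by counts and medians, without a set test. Same-group pairs of the 9 libraries (16) differed beyond sampling noise, with a lowest chi-square of 11.28 per degree of freedom. The script was tested on simulated data. Alternatives covered scaling, filters, DESeq2 1.42.0, limma 3.58.1 (voom), the 9 libraries alone, runs of consecutive library codes as a block, and leaving out each library.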

Additional observations from a re-analysis of the deposited data

Results flagged for a closer look

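Of 228 pairs of a named gene and a group, 13 had 1 library far from the rest of its group by the gap to its neighbour, and 9 of the 13 were library 17; chance gives about 1 in 20. Library 17 was lowest of the 5 STZ libraries for Kcng4 (0.545 CPM, the others 8.06 to 18.4), Mdga1 (0.545, the others 5.86 to 13), Casq1 (371.9, the others 1520 to 2240), Oxct1 (107, the others 159 to 185) and Ivd (66.9, the others 112 to 132). It was lowest too for Igfbp5 (61.6 CPM, the others 415 to 721), Myh1 (741.5, the others 2088 to 2407), Sypl2 (51.8, the others 225 to 346) and Alas2 of red cells (0.727, the others 8.19 to 12.7). In the same library the 10 most abundant genes took 13.5% of counts, against 22.1 to 26.9% in the other STZ libraries.

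STZ library 7 was lowest for Hspa1b (2.27 CPM, the others 7.80 to 11.6) and for Ccr2 (1.94, the others 7.87 to 12.5). Among the controls library 9 was lowest for Scd1 (270.3 CPM, the others 346 to 364), and library 5 was highest for Myf6, a muscle regulatory factor (96.9 CPM, the others 66.3 to 70.5).

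The STZ effect on Ddah1 differed between floxed and TKO muscle by -1.92 on the log2 scale, the 1 gene to pass that test in the main fit. No gene passed it without library 5, 19, 7, 17 or 21, or with the run as a block.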

How the results depend on the processing

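The number of genes past the threshold, 171 with all libraries, was 153 with upper-quartile scaling, 171 with DESeq2's size factors, 130 without a filter, 126 with at least 10 counts in every floxed library and 245 with the run as a block (150 shared with the 171). It was 425 by DESeq2, 770 by limma voom with quality weights, 265 with only the 9 floxed libraries and 655 with the floxed libraries of runs 1, 2 and 6. With the run as a block, branched-chain breakdown had 2 genes lower in place of 1, ketone body genes 2 lower in place of 1, fatty acid and sterol synthesis 2 lower and 1 higher in place of 1 lower, and complex I none in place of 1. DESeq2 and voom each called all 171 in the same direction. Leaving out 1 library gave 31 to 333. After seeing the data, library 17 was left out of the 9 floxed libraries alone (459), and libraries 1 and 17 out of all (26).

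The difference between both STZ effects, 1 gene (Ddah1), was 4 genes by DESeq2, 2 by voom, 2 without a filter and 0 to 2 leaving out 1 library. By edgeR it was 0 with at least 10 counts in every floxed library (376 genes at an unadjusted p under 0.05; Ddah1 was not tested there), 0 where libraries 1 and 17 were left out (428) and 0 with the run as a block (652).

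No named gene that was past the threshold turned its direction under any of these settings. Over all named genes and settings the result stayed as reported in 1783 cases, which include genes that were not called and stayed so. A call was lost in 396 cases and gained in 71. Of the 114 named genes 70 were called, and only these could lose a call. Medians of lists moved beyond the spread between libraries in 46 cases and stayed within it in 1226. The title numbers are unique, so no replicate number pairs libraries across groups; the runs of library codes, which the labels do not call batches, stood in as the block above. At total counts of 3377613 to 7687823, a level of 1 CPM rests on fewer than 10 reads in a library.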
